A study of Mus musculus with 18 samples.

Results

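On 3 of the 18 arrays of this mouse fibroblast series, the 3' end of the Gapdh message was measured far above its 5' end. They were the arrays of trisomy 13 replicates 3 and 4 and trisomy 16 replicate 1, and they are called the 3'-biased arrays here. Arrays entered this set when the deposited log2 value of the 3' Gapdh control probe set exceeded that of the 5' one by more than 3. They were set against the 4 other arrays of the same trisomies, trisomy 13 replicates 1 and 2 and trisomy 16 replicates 2 and 3, to describe which messages lost and which kept signal in both trisomies. The Gapdh values that chose the arrays are a description and support nothing.

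The series measured total RNA of mouse embryo fibroblast (MEF) lines, primary cultures grown for 2 passages, on Affymetrix arrays. It holds 4 lines with 3 copies of chromosome 13 (Ts13), 3 with 3 copies of chromosome 16 (Ts16), 1 with 3 copies of chromosome 19, 1 with 3 copies of chromosome 1, and 9 control lines with a normal chromosome complement (Wt). All lines were cultured in the same medium, extracted with Trizol and labelled as biotinylated cRNA from 5 ug of total RNA. The labels name no strain, no embryo age and no treatment, and they do not say whether lines came from separate embryos, so the p-values can only reflect how much these samples vary, which may be technical. Because the arrays were grouped by a measured property, they describe how these 7 arrays differ.

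A messenger RNA ends at its 3' side in a poly(A) tail. Labelling of this kind primes complementary DNA from that tail, so a broken message, or cDNA synthesis that stops early, leaves its 5' part unlabelled. Whether either took place in these samples was not tested. A probe set is a group of short probes within one stretch of a message, usually near the 3' end, and how far it lies from the tail differs between genes. Affymetrix arrays therefore carry separate probe sets for the 5', middle and 3' parts of Gapdh, a glycolytic enzyme, and of beta-actin, a cytoskeletal protein, as a check of RNA and labelling. The positions of the other probe sets along their messages were not used here.

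The 3' minus 5' difference of Gapdh was 6.94 on Ts13 replicate 3, 5.57 on Ts13 replicate 4 and 6.55 on Ts16 replicate 1. It lay between -0.14 and 0.00066 on the 4 other Ts13 and Ts16 arrays, and the next highest value in the series was 1.41, on Wt replicate 9. The lowest value inside the limit was thus 5.57 and the highest outside it 1.41, with no array between. The 5' Gapdh signal was 7.16 to 8.76 on the 3'-biased arrays, against 14.95 to 15.45 on the other Ts13 and Ts16 arrays. The middle probe set was at 9.80 to 10.25 on the 3'-biased arrays, against 14.42 to 14.93 on the others. The 3' probe set was at 14.11 to 14.56, against 14.95 to 15.30. The deficit therefore became smaller from the 5' end to the 3' end.

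Beta-actin had not chosen the arrays and separated the same 3. Its 3' minus 5' difference was 7.54 on Ts13 replicate 3, 7.06 on Ts13 replicate 4 and 3.07 on Ts16 replicate 1, against 0.32 to 0.46 on the 4 other arrays and 0.32 to 0.98 on all 15 arrays outside the set. Its 5' signal was 7.98 to 12.57 on the 3'-biased arrays, against 15.60 to 15.89 on the others, while its 3' signal was 15.52 to 15.64, against 16.06 to 16.22. The actin message of Ts16 replicate 1 thus had a smaller deficit than that of both Ts13 arrays, although its Gapdh difference lay between theirs. The bacterial bioB spike, added as labelled RNA at hybridisation, had a 3' minus 5' difference of -0.52 to -0.02 on the 3'-biased arrays, within the range of -0.60 to 0.27 on the others. The cre spike had 0.01 to 0.12 on the 3'-biased arrays and -0.01 to 0.22 on the others. The difference of bioC was 0.72 to 0.85 on the 3'-biased arrays and 0.95 to 1.13 on the others, and that of a second bioB set was -0.12 to 0.06 and 0.18 to 1.07, so both were lower on the 3'-biased arrays with no overlap. The control sets of the transferrin receptor, a cell message, had 1.90 to 3.60 and 2.25 to 3.90, with the 5' signal at 2.40 to 2.47 and 2.33 to 3.32, near the low end on all 7 arrays.

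**Figure D1:**
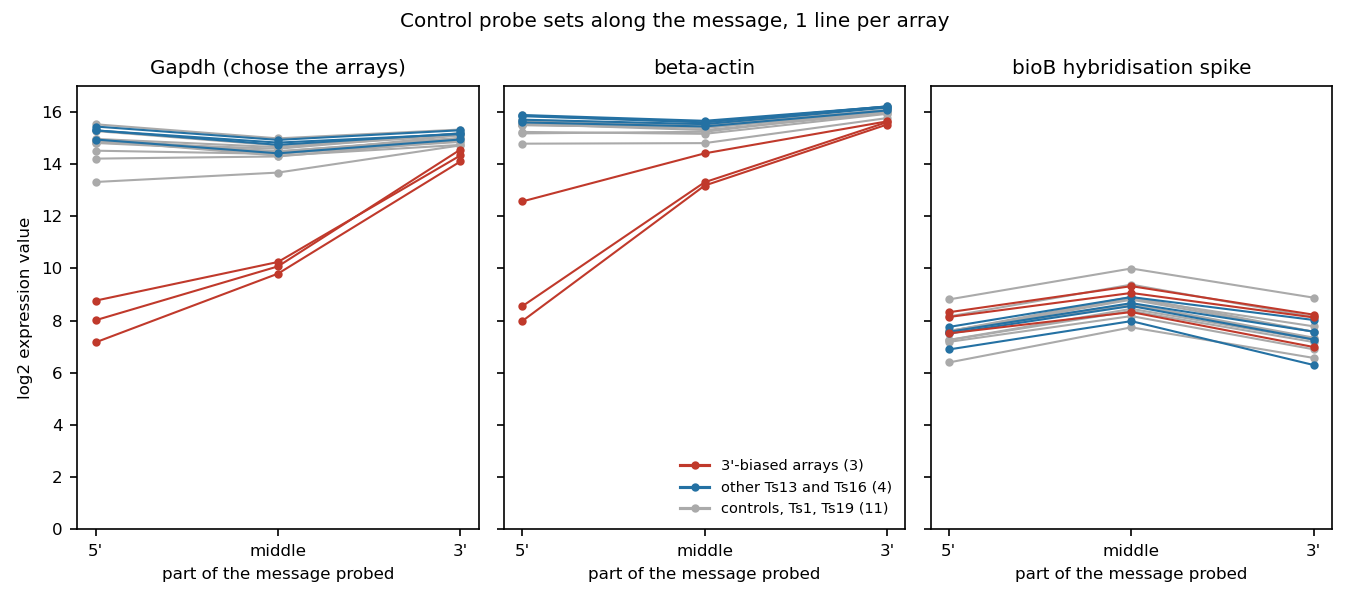
Log2 values of the 5', middle and 3' control probe sets of Gapdh, beta-actin and the bioB hybridisation spike, with 1 line for each of the 18 arrays. The 3'-biased arrays (red) climb from 7.16 to 8.76 at the 5' end of Gapdh to 14.11 to 14.56 at its 3' end, while the 4 other Ts13 and Ts16 arrays (blue) are nearly flat and the bioB spike is highest in its middle part on all arrays.

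The cultures were checked against markers. All 15 fibroblast markers passed the filter on low values, with a mean of 12.98 to 13.44 on the 3'-biased arrays and 12.99 to 13.84 on the other Ts13 and Ts16 arrays. No erythroid or liver marker of 9 passed. Of 20 macrophage markers 4 passed, and their mean over all 20 was 2.84 to 4.86 on the 3'-biased arrays, 2.70 to 2.82 on the others and 2.52 to 4.15 on the controls. The highest value belonged to Ts13 replicate 4, where Ctss was at 9.27, Lyz2 at 9.07 and Mpeg1 at 7.90, against 3.66, 4.60 and 2.35 on Ts13 replicate 3, and none of the 4 was called. Of the markers of other cell types, 1 of 12 endothelial, 2 of 12 epithelial, 3 of 11 neural, 1 of 12 skeletal muscle and 4 of 13 adipocyte and cartilage genes passed the filter. Their part in the results was not tested. In bulk RNA fewer cells of a type and less RNA per cell cannot be told apart. Across all probe sets the 3'-biased arrays correlated with each other at Pearson's r of 0.976 to 0.985, and with the other Ts13 and Ts16 arrays at 0.915 to 0.958.

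Many genes had lower or higher signals on the 3'-biased arrays. With 1 probe set per gene, 7381 genes were tested by limma, with a term for each label group and 1 for 3' bias, and p-values were adjusted over all of them by the Benjamini-Hochberg method. A gene was called at an adjusted p under 0.05. On this rule 1369 genes (18.5% of those tested) were lower and 1591 (21.6%) were higher on the 3'-biased arrays, in all 40.1%. The number of higher genes rested on single arrays, at 468 without Ts16 replicate 1 and 762 without Ts13 replicate 4. The falls were the larger changes, with a median of -1.71 on the log2 scale and 275 genes below -3. The rises had a median of 0.99, and 7 genes exceeded 3. Of the genes that fell, 44 had a mean of at least 8 on the other arrays and under 4 on the 3'-biased ones. The files hold no calls of detection, and the 27 poly-A spike probe sets read 1.95 to 3.08 on the 3'-biased arrays. A gene with values in or near that range may have no signal left there, so its difference is a minimum size, its SE does not cover what lies below, and the order among such genes has no meaning.

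The balance of rises and falls depended on the scale. The median difference of all tested genes was 0.23, and when each array was shifted so that its median difference from the mean of the 18 arrays was 0, which brought that median to 0.08, 1555 genes were lower and 1149 higher. Values below are on the deposited scale, so a gene that moved with the bulk of the array stands at about 0.23.

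The contrast was also made within each trisomy, from separate arrays. Within Ts13 the 3'-biased arrays were lower for 1185 genes (16.1%) and higher for 468 (6.34%). Within Ts16, which had a single 3'-biased array, they were lower for 537 genes (7.28%) and higher for 228 (3.09%). The single array was assumed to vary like the other groups, and its calls have no replicate of their own. These contrasts share no array, although 1 estimate of the spread served both. Of the genes lower in Ts16, 495 were also lower in Ts13, which is 92.2% of the Ts16 genes and 41.8% of the Ts13 genes. No gene was lower in one trisomy and higher in the other. The 1185 genes that were lower in Ts13 had a median of -2.06 in Ts13 and -1.34 in Ts16, and 91.2% of them were below 0 in Ts16. The 468 genes that were higher in Ts13 had a median of 1.35 in Ts13 and 1.12 in Ts16, and 99.6% of them were above 0 in Ts16. Across the 7381 genes the differences of both trisomies correlated at a Pearson coefficient of 0.81 and a Spearman coefficient of 0.77, a description across genes, which are not independent replicates.

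Whole groups were also counted without the model. For 1563 genes (21.2%) each 3'-biased array lay below each other array of its own trisomy, and for 2561 (34.7%) each lay above. Among the genes that fell, 1263 (17.1% of all tested) also met the first condition, and among those that rose, 1544 (20.9%) met the second. The labels give lines a first number, of unstated meaning, that some arrays share. Within number 89, Ts16 replicate 1 minus replicate 3 had a median of -1.46 over the genes called lower in Ts13 and 1.23 over those called higher there. Within number 780, Ts13 replicate 3 minus replicate 2 had a median of -2.69 over the genes called lower in Ts16 and 0.67 over those called higher there. Each pair was thus set against calls of the other trisomy, in which it took no part beyond the shared estimate of the spread. Ts13 replicate 4 shared its number only with Wt replicate 7, so trisomy and 3' bias cannot be told apart in that pair.

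**Figure D2:**
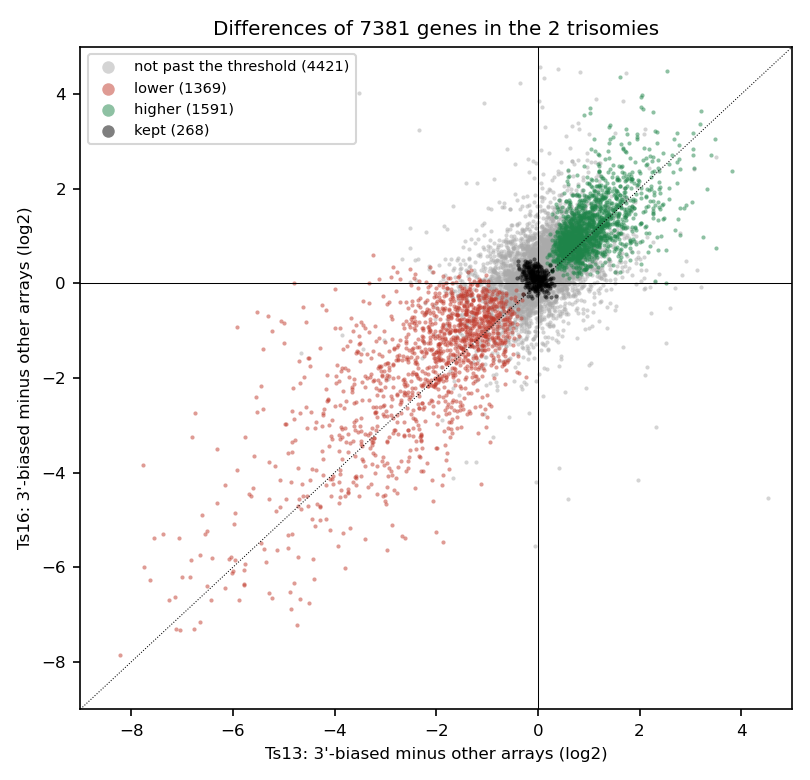
Difference of the 3'-biased from the other arrays within Ts13 (x axis) and within Ts16 (y axis) on the log2 scale, with 1 point per gene and the dotted line marking equality. Genes that fell (red) lie in the lower left and reach -8, genes that rose (green) lie in the upper right, and the kept genes (black) sit around 0.

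Some probe sets lost nearly all their signal. Values are given in the order Ts13 replicate 3, Ts13 replicate 4 and Ts16 replicate 1 for the 3'-biased arrays, and Ts13 replicates 1 and 2 and Ts16 replicates 2 and 3 for the others. Get3, the ATPase that hands tail-anchored proteins to the endoplasmic reticulum (ER), had values of 3.06, 2.94 and 2.80 on the 3'-biased arrays, against 10.86, 11.60, 10.16 and 11.18. Its difference was -8.09 ± 0.39 (SE), with an adjusted p of 3.52e-09 by limma, and it was 9.52 to 11.38 on the 9 controls. Tomm40, the channel through which proteins enter mitochondria, had 3.19, 3.03 and 2.87, against 10.14, 10.16, 9.87 and 10.53. Its difference was -7.16 ± 0.48 (limma, adjusted p = 3.56e-08). The groups were more than 6 log2 units apart at their nearest arrays for both genes.

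Fads2, a desaturase of polyunsaturated fatty acids, was at 2.68, 2.64 and 2.59, against 9.71, 9.84, 9.02 and 10.76, a difference of -7.19 ± 0.73 (limma, adjusted p = 2.41e-06). Tgfb1, the growth factor TGF-beta 1 that drives matrix production in fibroblasts, was at 2.80, 2.00 and 1.99, against 9.13, 9.21, 8.66 and 9.93, a difference of -6.98 ± 0.69 (adjusted p = 1.76e-06). All 3 of the 3'-biased arrays thus stood under 3 for both genes, and both differences are minimum sizes. Ehmt2, a methyltransferase of histone H3, was at 4.18, 3.10 and 4.43, against 10.43, 10.56, 9.90 and 11.35, a difference of -6.59 ± 0.42 (adjusted p = 2.69e-08). Otub1, a deubiquitinating enzyme, was at 2.47, 2.69 and 3.26, against 9.53, 10.14, 9.81 and 10.11, a difference of -7.03 ± 0.65 (adjusted p = 8.26e-07).

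The remaining 8 of the 14 named falls differed by -7.09 to -6.54, and these values depend in part on the level on the other arrays, since many of the 3'-biased values were near the low end. Among them were Atf5, a stress-induced transcription factor (-7.09 ± 0.76), Pld3, a lysosomal protein of the phospholipase D family (-7.05 ± 0.81), and Anp32a, an acidic nuclear phosphoprotein (-6.94 ± 0.71). Rcc2, a regulator of chromosome segregation (-6.86 ± 0.84), Plp2, a membrane protein of the ER (-6.68 ± 0.71), and Arf5, a small GTPase of the Golgi (-6.68 ± 0.55), followed. Qsox1, which forms disulphide bonds in secreted proteins, had -6.54 ± 1.11, and Pacs2, a sorting protein between ER and mitochondria, -6.54 ± 0.48. The Qsox1 values of the other arrays were spread widely, at 11.01, 11.66, 8.40 and 9.09, but all lay above the 3.97, 3.96 and 3.45 of the 3'-biased arrays. In all, 1017 genes met the same conditions of a call, no overlap in either trisomy and a mean of at least 8 on the other arrays.

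The 10 largest rises were smaller than the 14 largest falls, and most of these genes had low values on the other arrays. Choosing the largest rises by itself favours genes that were low there. Phactr2, a regulator of protein phosphatase 1 and actin, had 6.72, 6.95 and 7.02 on the 3'-biased arrays, against 3.39, 3.88, 2.81 and 4.50, a difference of 3.26 ± 0.48 (limma, adjusted p = 8.36e-05). Zfp189, a zinc finger protein, had 6.04, 7.70 and 6.19, against 3.77, 3.16, 3.68 and 3.26, a difference of 3.13 ± 0.53 (adjusted p = 0.000337). B3gnt5, a glycosyltransferase of glycolipid synthesis, had 7.09, 8.50 and 7.98, against 4.96, 5.17, 5.43 and 4.16, a difference of 2.92 ± 0.64 (adjusted p = 0.00272). In each the 3'-biased arrays were above the others in both trisomies, and for Phactr2 and Zfp189 they also exceeded the highest control, at 5.90 and 5.65. Zfp189 and Snap91 passed the filter on low values only through the 3'-biased arrays, and with a mean of 4 asked of the 15 others they were not tested and 1561 genes were higher.

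The other named rises differed by 2.92 to 3.38. They were Epha7, an ephrin receptor (3.38 ± 1.24, adjusted p = 0.040), Ldb3, a protein of the muscle Z-disc (3.32 ± 0.92), Tslp, a cytokine (3.31 ± 0.93), and Dner, a Notch ligand known from neurons (3.24 ± 0.76). Snap91, a clathrin assembly protein of synapses, followed with 3.11 ± 0.80, Calml4, a calmodulin-like protein, with 2.97 ± 1.12, and Itih5, a hyaluronan-binding matrix protein, with 2.92 ± 0.75. Epha7 reached 9.84 on 1 control, so its 8.60, 9.84 and 7.17 on the 3'-biased arrays lay within the control range. Without Ts16 replicate 1, Epha7, Ldb3, Tslp, Snap91 and Calml4 were not called (limma, adjusted p = 0.052 to 0.17), and Epha7 and Calml4 were also lost without any 1 of several other arrays. Of the genes that rose, 38 had a mean under 4 on the other arrays.

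Another set of messages kept its signal. A gene counted as kept when the 95% confidence interval of its difference lay within -0.5 and 0.5, which 268 genes (3.63%) met. This condition needs a small error as well as a small difference, and the median SE was 0.15 among the kept genes against 0.31 among all tested. The kept genes had a median difference of 0.02 and a median level of 13.03 on the other arrays. The 8 brightest were Rpl13a, Rps29 and Rpl35, proteins of the cytosolic ribosome, Lgals1, a galectin, Tmsb10, a thymosin that binds actin, Tpt1, a growth-related calcium-binding protein, Vim, the intermediate filament protein vimentin of mesenchymal cells, and Actg1, gamma-actin. Vim was at 16.09, 16.23 and 15.73 on the 3'-biased arrays and at 16.10, 15.53, 15.96 and 16.05 on the others, a difference of 0.10 ± 0.13. Tpt1 was at 15.90, 15.89 and 15.80 and at 15.84, 16.04, 15.89 and 15.96, a difference of -0.08 ± 0.07. Groups overlapped for both genes. For Lgals1, Tmsb10 and Actg1, however, each 3'-biased array lay below each other array of its trisomy, and for Rpl35 each lay above. Tmsb10 differed by -0.22 ± 0.09 (limma, adjusted p = 0.0502). Rpl35 was kept by the interval although its difference of 0.28 ± 0.09 passed the test (limma, adjusted p = 0.0284). The values of these 8 genes lie close to 16.35, the highest value on any array, and a change there can be hidden by saturation of the probes, which was not tested.

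**Figure D3:**
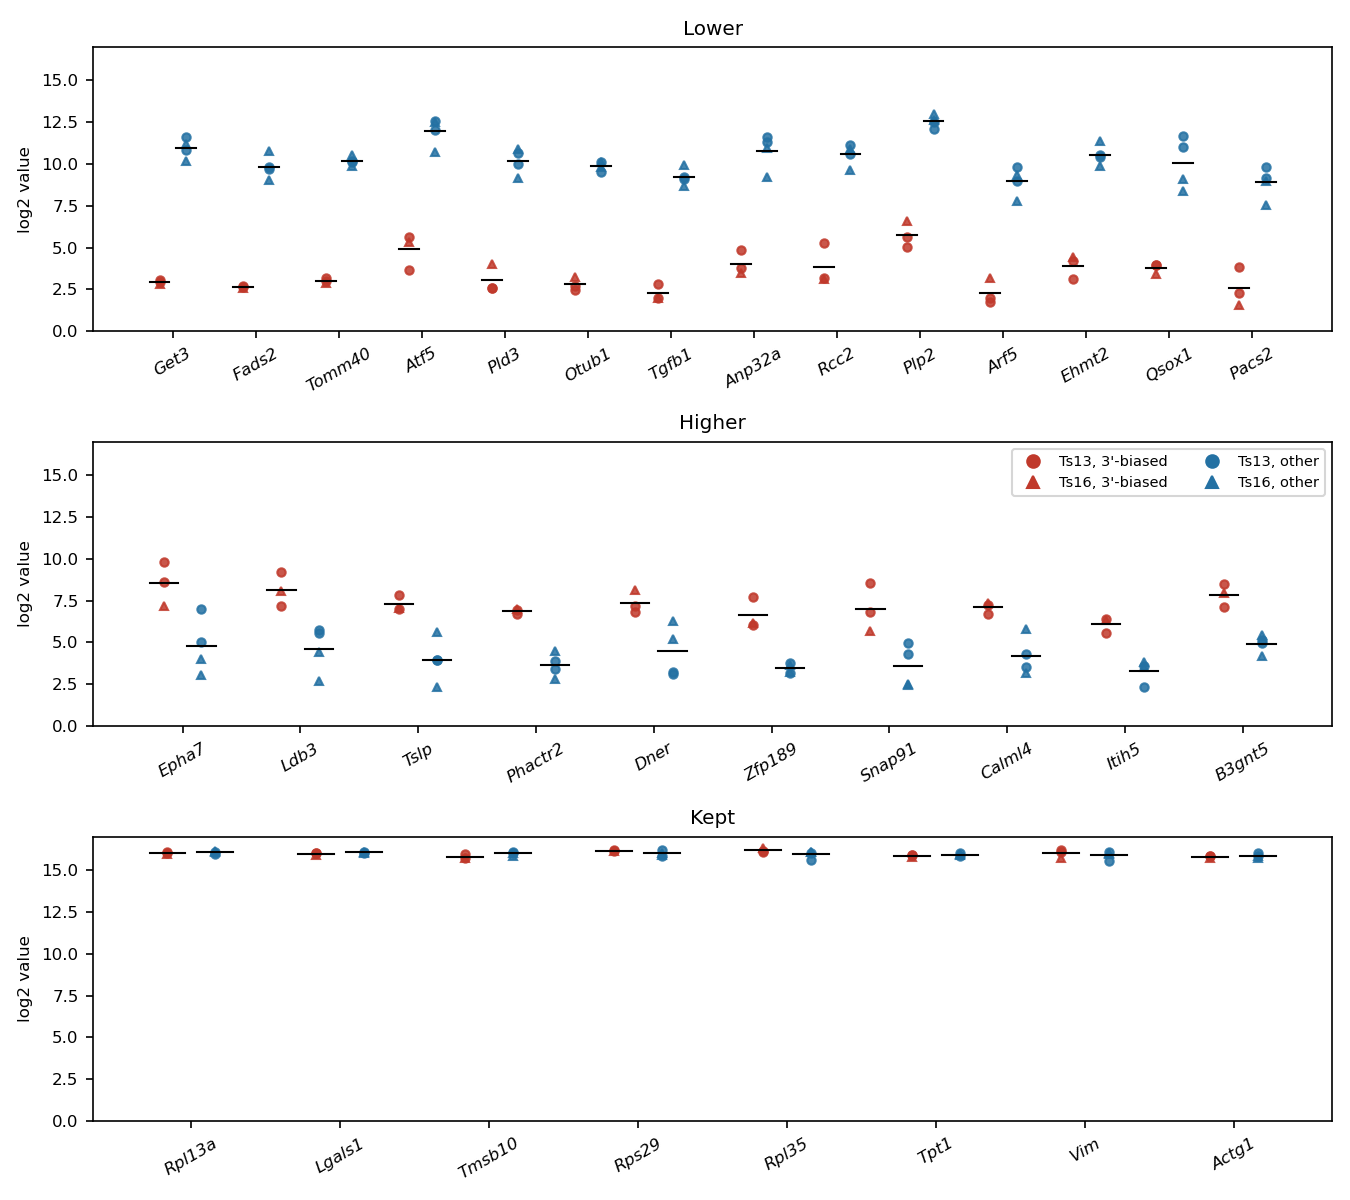
Log2 values of the 14 most reduced, 10 most increased and 8 brightest kept genes, with 1 point per array (circles Ts13, triangles Ts16), the 3'-biased arrays in red left of the other arrays in blue, and the mean as a bar. Reduced genes fall to between 1.59 and 6.62, increased genes stand at 5.58 to 9.84 on the 3'-biased arrays, and kept genes are near 16 on all 7 arrays.

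Probe sets of 1 gene did not lose signal alike. Each of 11714 probe sets was fitted singly, and 2628 (22.4%) were lower and 2285 (19.5%) higher on the 3'-biased arrays. Of 1837 genes with at least 2 probe sets at a mean of 8 or more on the other arrays, 884 (48.1%) had differences that spanned more than 1, and 283 (15.4%) spanned more than 3. At least 1 probe set fell and another did not pass as a fall in 672 genes, which is 81.3% of those with any fallen probe set, while all probe sets fell in 155. In 122 genes 1 probe set fell and another rose.

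The 4 genes with the widest span show what this means for a single message. Msn encodes moesin, which links actin to the cell membrane. Its probe set 1450379_at had 2.19, 3.09 and 5.09 on the 3'-biased arrays, against 12.57, 12.87, 12.58 and 12.86, a difference of -9.10 ± 0.67 (limma, adjusted p = 9.12e-08). Its probe set 1421814_at had 13.998, 13.94 and 13.89, against 14.30, 14.15, 13.71 and 13.88, a difference of -0.12 ± 0.18 (adjusted p = 0.619). One probe set of moesin thus had values far below those of the other arrays, and the other gave overlapping values.

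Fzd2, a receptor of Wnt ligands, had 3 probe sets. The first, 1418532_at, was at 1.35, 1.66 and 1.86, against 9.28, 10.84, 10.44 and 11.32, and the second, 1418533_s_at, at 6.73, 4.90 and 5.94, against 9.67, 10.68, 10.63 and 11.24. Probe set 1418534_at was at 10.40, 10.52 and 10.74, against 8.81, 9.63, 10.41 and 10.85. Their differences were -8.74 ± 0.49, -4.61 ± 0.46 and 0.79 ± 0.37, so the loss ran from nearly whole to none that passed the test (adjusted p = 0.0997 for 1418534_at).

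Timp2, an inhibitor of matrix metalloproteases, had 5 probe sets with differences of -9.14, -4.55, -2.02, -0.32 and -0.02, of which the first 3 passed the test. The lowest, 1420924_at, was at 2.07, 1.84 and 1.83, against 10.70, 11.24, 10.90 and 11.40, and the highest, 1460287_at, at 14.25, 14.52 and 14.27, against 14.34, 14.49, 14.19 and 14.36. Col5a1, a chain of the fibril-forming collagen V, had 3, at -9.51, -1.89 and -0.36, of which the first 2 passed. Its probe set 1416741_at was at 2.44, 2.39 and 2.44, against 11.78, 11.94, 11.78 and 12.32. Within each of these genes the values of the 3'-biased arrays ran from far below those of the other arrays to within their range or close to it.

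**Figure D4:**
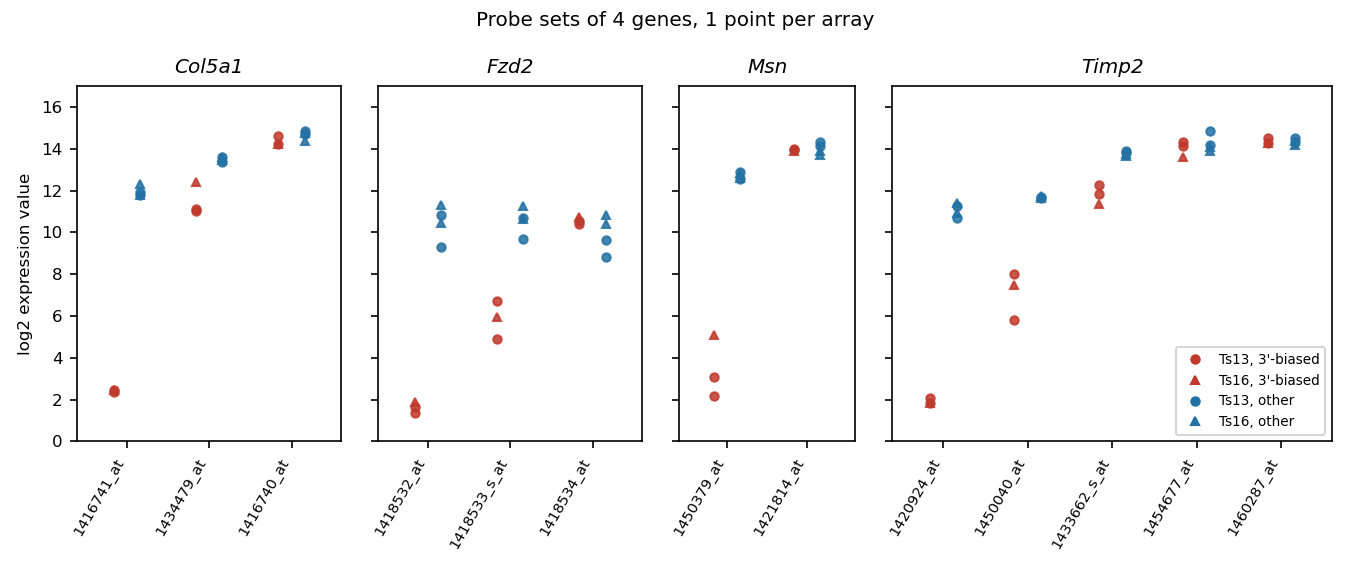
Log2 values of each probe set of Col5a1, Fzd2, Msn and Timp2, ordered within a gene by the difference, with 1 point per array, the 3'-biased arrays in red left of the other arrays in blue (circles Ts13, triangles Ts16). The blue points of a gene stay at 8.81 or above in every probe set, while the red points run from 1.35 to 14.61.

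The choice of probe set carried over to the gene level. Within the 1837 genes, the probe set that was brightest in the controls had a median difference of 0.25, and 16.0% of these fell, while the dimmest had a median of -0.15, and 34.6% fell. The dimmest was the lower of both in 66.5% of the genes. These probe sets were chosen by their level on the other arrays, which is itself subtracted in the difference. Noise in that level can push dim probe sets that only just met the condition towards a fall. The part of this choice in the contrast of brightest and dimmest was not tested. Each gene is represented by its brightest probe set over all arrays, and 18.5% of genes fell on that basis, beside 22.4% of probe sets. Col1a1, the main chain of collagen I, was an extreme case and was singled out after its values were seen. Its probe set 1423669_at was at 13.43, 11.55 and 13.44 on the 3'-biased arrays, against 15.09, 15.33, 15.46 and 15.94, a fall of -2.54 ± 0.33. Its probe set 1455494_at was at 15.08, 14.25 and 15.03, against 11.69, 11.48, 11.50 and 10.86, a rise of 3.38 ± 0.65 (limma, adjusted p = 0.000872). With the mean of its probe sets Col1a1 differed by 0.42, with an adjusted p of 0.37.

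The share of genes that fell varied with the span of the gene. Genes were divided into 5 classes of equal number by the length of genomic DNA they span in RefSeq (assembly GRCm38.p6). The shortest class, up to 8.14 kb, had a median difference of -0.07, with 26.5% lower and 11.8% higher. The longest class, from 63.6 kb, had a median of 0.48, with 11.6% lower and 31.1% higher. The 3 classes between had medians of 0.09, 0.23 and 0.37, so the medians followed the order of span. The Spearman coefficient of the difference with span was 0.22 across 7372 genes. It was 0.06 with the number of RefSeq transcripts and -0.00055 with the GC content of the promoter. With the level on the other arrays it was -0.18, which turned to 0.024 without the filter on low values. That level is itself subtracted in the difference, so noise in it alone can make this coefficient negative. Probe sets also differed by the record they were designed from, beside 22.4% of all probe sets that fell. The share ran from 14.4% with an accession that begins with AV to 26.2% with AK, and was 25.5% with a RefSeq accession. By the ending of the probe set name, it ran from 12.2% for x_at to 29.2% for a_at. Lengths of the transcripts were not used here.

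The functional groups below were described by the number of tested members that were lower (18.5% of all genes) or higher (21.6%), and by their median beside the 0.23 of all genes. Kept members stand beside 3.63% of all genes. The kept genes were bright as a set, and the part of brightness or of saturation in any list's kept share was not tested. The groups whose share of lower genes was highest were those of vesicle coats and Golgi transport, aminoacyl-tRNA synthetases, ER folding and smooth muscle contraction.

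Vesicle coat and Golgi transport genes, which carry cargo between ER, Golgi and plasma membrane, had 21 of 42 lower and 5 higher, with a median of -0.42. Arf5 had 1.96, 1.75 and 3.18, against 8.99, 9.81, 7.82 and 9.32. Copa, a subunit of the COPI coat, was at 10.98, 10.89 and 10.63, against 13.00, 13.44, 12.87 and 13.42, a difference of -2.38 ± 0.26 (limma, adjusted p = 5.18e-06). Sec31a, of the outer COPII coat, differed by -3.78 ± 0.48, and Gbf1, which activates Arf GTPases at the Golgi, by -4.01 ± 0.40. ER chaperones and folding enzymes had 12 of 28 lower and 3 higher, with a median of -0.32. P4hb, protein disulphide isomerase, differed by -1.89 ± 0.20, P4ha2, a prolyl hydroxylase of collagen, by -1.36 ± 0.21, and Plod1, a lysyl hydroxylase of collagen, by -2.44 ± 0.40. Hspa5, the ER chaperone BiP, was at 14.48, 14.32 and 14.67, against 14.99, 15.06, 14.99 and 14.85, a fall of -0.47 ± 0.10.

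Aminoacyl-tRNA synthetases, which charge tRNAs with their amino acids, had 8 of 18 lower and 1 higher. Vars, for valine, was at 2.12, 2.10 and 2.10, against 7.82, 7.94, 7.58 and 8.50, a difference of -5.84 ± 0.40 (limma, adjusted p = 4.13e-08) and a minimum size, as the 3'-biased values were at the low end. Farsa, a subunit for phenylalanine, was at 3.34, 2.93 and 3.15, against 8.94, 9.50, 8.76 and 9.19. Sars, for serine, differed by -1.98 ± 0.42, and Cars, for cysteine, by -6.81 in Ts13 and -3.25 in Ts16. The list's median was -0.27 in all, but -0.62 in Ts13 and 0.04 in Ts16. Translation initiation and elongation factors had 8 of 33 lower, 0 higher and 10 kept, beside 3.63% of all genes kept. The median level of these factors on the other arrays was 13.35, against 9.42 for all tested genes. Eif5a, which helps ribosomes through proline stretches, was at 13.10, 13.23 and 13.92, against 15.47, 15.66, 15.57 and 15.59, a difference of -2.10 ± 0.15 (adjusted p = 7.52e-08). Eef2, the translocation factor of the ribosome, differed by -2.21 ± 0.25, Eif3d by -1.42 ± 0.21 and Eif6 by -1.51 ± 0.24.

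Cytosolic ribosomal proteins had 19 of 40 kept, beside 3.63% of all genes. The kept genes were bright as a set, and this list had a median level of 15.14 on the other arrays, against 9.42 for all tested genes. The part of brightness or of saturation in this share was not tested. Of the 40, 10 were lower (25%, beside 18.5% of all genes) and 3 higher (7.5%, beside 21.6%), with a range of -1.14 to 0.69. The median was -0.00, which was 0.02 after quantile normalization and -0.15 after that shift of arrays. Rps14 was at 14.54, 14.37 and 14.19, against 15.29, 15.38, 15.19 and 15.10, a difference of -0.91 ± 0.12. Rplp0, of the ribosomal stalk, was at 14.57, 13.89 and 15.56, against 15.82, 15.95, 15.94 and 15.92, and differed by -1.66 in Ts13 and -0.37 in Ts16. Many ribosomal protein genes have near-identical processed copies, so their probe sets may read more than 1 gene. Mitochondrial ribosomal proteins had 16 of 53 lower, 7 higher and 3 kept. Mrps5 was at 2.91, 2.91 and 4.26, against 8.00, 8.18, 7.97 and 8.28, a difference of -4.65 ± 0.30 (limma, adjusted p = 2.69e-08). Mrpl4 differed by -5.14 ± 0.53, Mrps18a by -3.19 ± 0.25 and Mrpl10 by -1.88 ± 0.22. A difference between the ribosome lists was not tested.

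Proteasome subunits had 11 of 32 lower, 0 higher and 2 kept. Psmd2, of the proteasome's regulatory particle, was at 7.25, 6.65 and 10.22, against 12.34, 12.64, 12.45 and 12.81, a difference of -4.29 ± 0.45 (limma, adjusted p = 3.27e-06). Psmd7 of the same particle differed by -3.66 ± 0.30, Psmd4, its ubiquitin receptor, by -2.40 ± 0.32, and Psmc5, one of its ATPases, by -1.33 ± 0.18. The median of the list was -0.48 in Ts13 and 0.14 in Ts16. Respiratory chain and ATP synthase genes had 13 of 68 lower (19.1%) and 12 higher (17.6%), near the 18.5% and 21.6% of all genes. In this list 12 were kept, beside 3.63% of all genes. Its median level on the other arrays was 12.67, against 9.42 for all tested genes. Ndufa8, of complex I, was at 8.35, 8.31 and 10.27, against 11.93, 12.55, 12.46 and 12.18. Atp5g1 and Atp5g2, both for the membrane ring of ATP synthase, differed by -2.83 ± 0.29 and -2.62 ± 0.34, and Uqcrc1, of complex III, by -1.57 ± 0.21.

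Cytosolic and mitochondrial chaperones had 8 of 29 lower, 1 higher and 6 kept, beside 3.63% of all genes kept. The median level of these chaperones on the other arrays was 12.99, against 9.42 for all tested genes. Stip1, which links Hsp70 to Hsp90, was at 7.43, 6.59 and 6.56, against 10.70, 10.81, 11.08 and 10.72, a difference of -3.98 ± 0.25 (limma, adjusted p = 2.69e-08). Ahsa1, an activator of Hsp90, differed by -2.33 ± 0.33, and the small heat shock proteins Hspb1 and Hspb8 by -2.71 ± 0.53 and -1.59 ± 0.28. Small abundant metal and redox proteins had 7 of 22 lower and 2 higher. The glutathione peroxidases Gpx1 and Gpx4 differed by -1.26 ± 0.21 and -1.05 ± 0.16, and the glutathione transferases Gstp1 and Gstm1 by -1.15 ± 0.17 and -3.47 ± 0.65.

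Lipid synthesis, lysosomal and glycolysis genes had 32%, 27.8% and 21.1% lower, beside 18.5% of all genes tested. The glycolysis share was thus close to that of all genes. Cholesterol and fatty acid synthesis genes had 8 of 25 lower and 2 higher. Fads2 was described above. Ebp, an isomerase of sterol synthesis, was at 5.86, 6.26 and 6.60, against 9.77, 10.47, 9.93 and 9.86, a difference of -3.75 ± 0.29 (limma, adjusted p = 1.83e-07). Fdps, which makes farnesyl diphosphate, differed by -2.87 ± 0.32, and Fasn, fatty acid synthase, by -2.13 ± 0.24. Lysosomal genes had 10 of 36 lower and 5 higher. Psap, the precursor of the saposins, was at 10.01, 9.99 and 9.61, against 13.52, 13.96, 12.83 and 12.76, a difference of -3.52 ± 0.36. The proton pump subunits Atp6v0d1 and Atp6v1f differed by -4.40 ± 0.56 and -2.55 ± 0.37, and the protease Ctsz by -2.76 ± 0.32. Glycolysis and lactate genes, without Gapdh, had 4 of 19 lower and 2 higher, with Pfkl, phosphofructokinase, at -3.54 ± 0.38, Slc16a3, a lactate carrier, at -2.92 ± 0.58, Pkm, pyruvate kinase, at -1.06 ± 0.24, and Aldoa, aldolase, at -0.89 ± 0.21. Aldoa differed by -1.32 in Ts13 and -0.25 in Ts16 (limma, adjusted p = 0.545 in Ts16), where the 3'-biased value of 13.56 lay between 13.53 and 14.09.

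Genes of the cytoskeleton and contraction included some of the brightest messages that fell. Smooth muscle contractile genes had 6 of 14 lower and 0 higher, with a median of -0.68. Myl9, a myosin light chain, was at 11.06, 11.23 and 12.55, against 13.89, 14.30, 14.41 and 14.07, a difference of -2.45 ± 0.31 (limma, adjusted p = 1.88e-05). Csrp1, a LIM protein, differed by -2.11 ± 0.27, Cnn1, calponin, by -2.22 ± 0.47, and Smtn, smoothelin, by -4.17 ± 0.59. Among 32 giant cytoskeletal and linker proteins 7 were lower (21.9%) and 5 higher (15.6%), near the 18.5% and 21.6% of all genes. Flna, the actin crosslinker filamin A, was at 8.69, 9.01 and 10.44, against 14.36, 14.49, 13.93 and 14.26, a difference of -4.81 ± 0.32 (adjusted p = 3.27e-08). Tln1, talin, which connects integrins to actin, was at 6.54, 6.54 and 4.41, against 11.10, 11.48, 11.31 and 11.95. Flnc, filamin C, differed by -5.01 ± 0.52 and Map4, a microtubule-binding protein, by -2.02 ± 0.29. The giant-protein list as a whole had a median of 0.05, which was -0.09 after that shift of arrays and -0.02 after quantile normalization.

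Small actin cytoskeleton proteins had 7 of 27 lower, 2 higher and 9 kept, beside 3.63% of all genes kept. The list's median level on the other arrays was 14.32, against 9.42 for all tested genes. Pfn1, profilin, was at 11.76, 11.33 and 10.19, against 14.21, 14.46, 14.20 and 14.40, a difference of -3.32 ± 0.49. Capg, which caps actin filaments, differed by -2.86 ± 0.54 and Arpc4, of the Arp2/3 complex, by -2.09 ± 0.46. Actb, beta-actin, is represented by its 3' control probe set and was at 15.52, 15.61 and 15.64, against 16.06, 16.21, 16.17 and 16.22, a difference of -0.56 ± 0.10.

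Matrix genes were divided. Of 20 collagens, 5 were lower and 4 higher. Col6a1, a chain of the microfibrillar collagen VI, was at 10.25, 9.21 and 9.36, against 12.30, 13.12, 13.36 and 13.96, a difference of -3.50 ± 0.65 (limma, adjusted p = 0.000725). Col12a1, a fibril-associated collagen, differed by -1.76 ± 0.44, and Col4a2, of basement membranes, by -1.54 in Ts13 and -0.40 in Ts16. Small matrix proteins and protease inhibitors had 6 of 22 lower and 0 higher. Serpinf1, the secreted factor PEDF, was at 11.80, 9.26 and 12.43, against 13.79, 14.50, 14.39 and 14.74, and Mfap2, of elastic microfibrils, at 5.39, 4.53 and 4.27, against 8.39, 9.38, 8.66 and 10.97. Bgn, biglycan, differed by -1.43 ± 0.22, and Loxl1, a lysyl oxidase of elastic fibres, by -0.93 ± 0.17. Of 24 large matrix glycoproteins and proteoglycans, 5 were lower (20.8%, near the 18.5% of all genes) and 3 higher (12.5%, beside 21.6%). Emilin1, Hspg2 (perlecan) and Lamb2 (a laminin chain) differed by -2.50 ± 0.40, -2.03 ± 0.44 and -1.96 ± 0.41. Nid2, nidogen 2 of basement membranes, moved up, at 9.40, 10.74 and 10.36, against 7.92, 8.54, 9.00 and 8.65, a difference of 1.72 ± 0.40 (adjusted p = 0.00382).

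Receptors and adhesion genes contained changes in both directions. Growth factor receptors had 9 of 35 lower and 9 higher. Igf1r, the receptor of insulin-like growth factor 1, was at 8.92, 8.91 and 8.85, against 10.88, 11.01, 10.70 and 11.02, a difference of -2.02 ± 0.28 (limma, adjusted p = 4.48e-05). Plxnb2, a semaphorin receptor, differed by -2.39 ± 0.31, Unc5b, a netrin receptor, by -3.22 ± 0.45, and Acvr1, a receptor of bone morphogenetic proteins, by -1.39 ± 0.20. The list's median of 0.35 became -0.51 with the mean of each gene's probe sets. Integrins and adhesion receptors had 4 of 27 lower and 1 higher, with the syndecans Sdc3 and Sdc4 at -4.24 ± 0.76 and -3.18 ± 1.09, Itga5, an integrin chain for fibronectin, at -1.67 ± 0.50 and the tetraspanin Cd9 at -0.72 ± 0.22.

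Ubiquitin ligases and deubiquitinases had more rises than falls, with 4 of 34 lower and 10 higher. Herc1, a very large ligase, was at 9.41, 9.67 and 9.63, against 8.53, 8.40, 8.55 and 8.04, a difference of 1.18 ± 0.29 (limma, adjusted p = 0.00583). Huwe1, another very large ligase, was at 6.40, 7.23 and 8.63, against 10.79, 11.14, 10.98 and 11.24, a difference of -3.48 ± 0.32. Each was read by 1 probe set, and the part of message size was not tested. Usp22, a deubiquitinase of the SAGA complex, differed by -5.18 ± 0.80, and Ubr4, a ligase of the N-degron pathway, by -1.29 ± 0.29.

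Transcription factors and chromatin regulators were mixed. Of 39 genes on the list of zinc finger and homeobox factors, which also holds other transcription factors such as Tead1 and Runx1, 4 were lower and 7 higher. The list's median was 0.38. Zfx was at 9.71, 10.16 and 10.43, against 8.65, 9.01, 9.23 and 8.16, a difference of 1.36 ± 0.27 (limma, adjusted p = 0.00116). Tead1, which acts in the Hippo pathway, differed by 2.16 ± 0.59, Runx1 by -2.67 ± 0.41 and Zeb2, a repressor of epithelial genes, by -2.34 ± 0.55. Of 24 chromatin regulators of large size, 6 were lower and 3 higher. The remodelling ATPases Smarca4, Chd4 and Atrx differed by -1.65 ± 0.24, -2.45 ± 0.42 and -2.60 ± 0.52, and Trrap, a scaffold of histone acetyltransferases, by -1.53 ± 0.31. Splicing factors and hnRNPs had 8 of 41 lower and 8 higher (19.5% each), near the 18.5% and 21.6% of all genes. Ptbp1, a splicing repressor, was at 8.45, 9.44 and 10.24, against 12.71, 12.79, 12.53 and 13.20. Snrpb, a core protein of spliceosomal particles, differed by -6.74 in Ts13 and -2.74 in Ts16, Snrnp70 of the U1 particle by -4.17 ± 0.51, and U2af1, which reads the 3' splice site, by -2.25 ± 0.24. Of 22 nuclear pore genes, 4 were lower and 4 higher (18.2% each), again near the shares of all genes. Rae1, an mRNA export factor, differed by -2.78 ± 0.41, Nup62 by -1.17 ± 0.30 and Aaas by 0.98 ± 0.29. Nup54 differed by 0.75 ± 0.24, and by -0.04 with the mean of its probe sets. Nup62 differed by -1.94 in Ts13 and -0.02 in Ts16, where the 3'-biased value of 10.54 lay between 10.73 and 10.39.

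Cell cycle lists held few calls. Mitosis and spindle genes had 4 of 40 lower and 0 higher, and DNA replication genes 5 of 40 lower and 4 higher. Their medians were 0.44 and 0.63. Counted without the model, 9 of 40 mitosis genes lay above the other arrays in both trisomies and 3 below. Over all genes tested these shares were 34.7% and 21.2%, so both mitosis counts were under them. For the 40 replication genes the counts were 19 above, over the share of all genes, and 6 below, under it. Their highest difference was 2.72. The members of both lists named next were taken in the order of p, and all of them were called lower. Plk1, a mitotic kinase, was at 5.09, 4.08 and 5.68, against 8.91, 8.85, 10.90 and 9.92, a difference of -4.47 ± 0.35 (limma, adjusted p = 1.83e-07). Ncapd2, of condensin, was at 3.66, 3.58 and 8.56, against 7.33, 7.71, 10.16 and 8.86, and Aurka, another mitotic kinase, at 3.23, 3.22 and 9.22, against 8.61, 8.45, 10.77 and 9.05. In Ts16 the Aurka value of the 3'-biased array thus lay between those of the other 2, while in Ts13 it lay far below. Ube2c, which feeds the anaphase-promoting complex, differed by -2.30 ± 0.47. Mcm2 and Mcm5 of the replicative helicase differed by -1.53 ± 0.32 and -1.59 ± 0.40, Pola2 of DNA polymerase alpha by -1.12 ± 0.34, and Pcna, the polymerase clamp, by -1.81 in Ts13 and 0.01 in Ts16. The 4 replication-dependent histones tested had 0 calls, with H1f2 at 0.12 ± 0.23 and H2aw at 0.15 ± 0.29.

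Stress and immune genes completed the survey. Immediate early and serum response genes, whose messages turn over fast, had 6 of 38 lower and 1 higher. Jun was at 7.83, 8.98 and 8.19, against 11.39, 11.52, 10.47 and 10.66, a difference of -2.78 ± 0.30 (limma, adjusted p = 3.87e-06), and Ier2, Btg2 and Gadd45b differed by -2.20 ± 0.50, -2.18 ± 0.49 and -1.93 ± 0.37. Of 23 p53 targets and apoptosis genes, 5 were lower and 2 higher. Cdkn1a, the cell cycle inhibitor p21, was at 12.15, 11.93 and 11.52, against 13.03, 13.19, 12.89 and 12.98, Phlda3 differed by -3.08 ± 0.43, Aen by -1.52 ± 0.30, and Birc2, an inhibitor of apoptosis, by 1.64 ± 0.25. Interferon response and antigen presentation genes had 4 of 14 lower and 1 higher, with Bst2, tetherin, at -3.96 ± 0.69, the class I genes H2-D1 and H2-K1, which are near-identical in parts, at -2.25 ± 0.48 and -1.85 ± 0.51, and Ifih1, a sensor of viral RNA, at 1.73 ± 0.57. Of 21 inflammatory and senescence secreted factors, 1 was lower and 1 higher. Il6 was at 8.60, 6.97 and 7.75, against 3.54, 6.56, 5.66 and 5.61, and Igfbp6, a binding protein of insulin-like growth factors, at 6.93, 3.13 and 8.27, against 9.03, 10.39, 10.85 and 11.17. Macrophage marker levels, which were highest on Ts13 replicate 4, stood beside these immune lists, and their part was not tested.

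**Figure D5:**
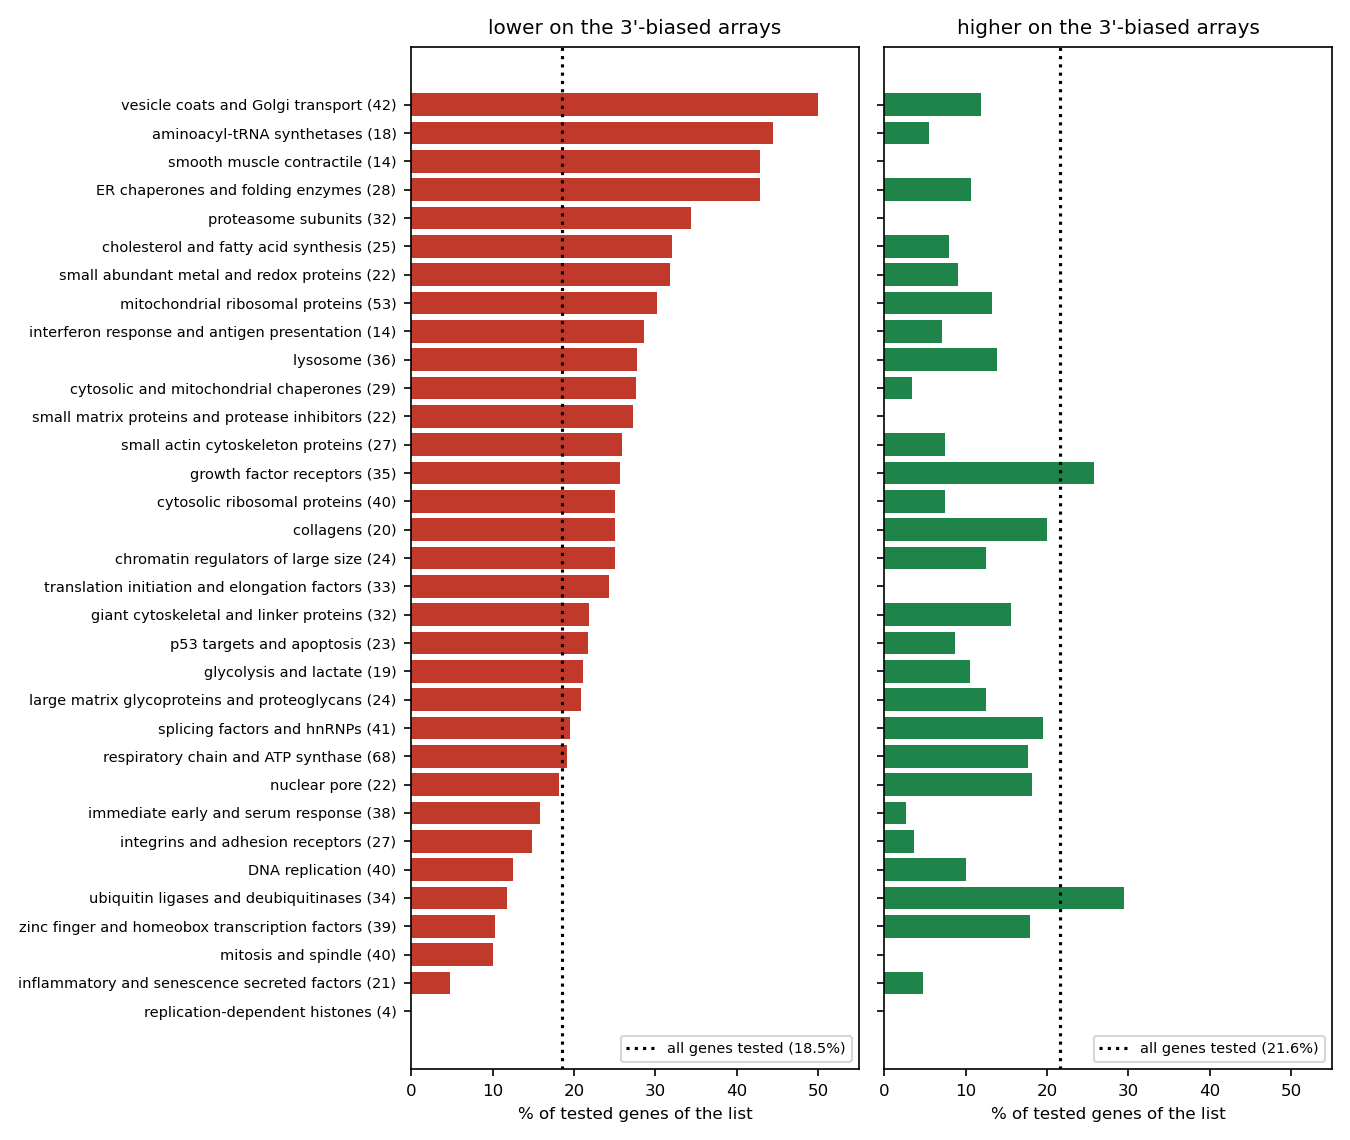
Share of the tested genes of each functional list that was lower (left) or higher (right) on the 3'-biased arrays, in percent, with the number tested in brackets and the share of all tested genes as a dotted line. Of the functional lists, vesicle coats and Golgi transport have the highest share of lower genes and ubiquitin ligases and deubiquitinases the highest share of higher genes.

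The size of the loss was compared between the trisomies by the difference of both gaps, Ts13 minus Ts16, in the same fit. It passed for 31 genes (0.42%), all with a deeper fall in Ts13, and 543 genes had an unadjusted p under 0.05. The Ts16 gap rests on 1 3'-biased array, and with only the 7 arrays of Ts13 and Ts16 in the fit limma called 0 genes, the 4 named here included, with 470 at an unadjusted p under 0.05. Actr1a, an actin-related protein of dynactin, was at 6.54 and 5.77 on the 3'-biased Ts13 arrays, against 11.53 and 11.84, and at 10.74 on the 3'-biased Ts16 array, against 11.21 and 11.48. Its differences were -5.53 in Ts13 and -0.61 in Ts16. Icmt, which methylates prenylated proteins, was at 3.27 and 3.40, against 8.48 and 8.66 in Ts13, and at 7.40, against 8.29 and 8.50 in Ts16. Dhrs7b, a reductase of ether lipid synthesis, differed by -5.05 in Ts13 and -0.79 in Ts16, and Adcy6, an adenylyl cyclase, by -5.00 and -0.84. In all 4 the Ts16 array still lay below both other Ts16 arrays. The 5' actin deficit was also smaller in Ts16 replicate 1, and its part in these genes was not tested. The count was sensitive to single arrays, with 6 genes without Ts13 replicate 2, 12 without Ts16 replicate 2, 20 without Ts16 replicate 3 and 47 without Ts13 replicate 3.

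Arrays outside the set were compared as well. The genes that fell were chosen by low values on the 3'-biased arrays, so low medians on those arrays follow from that choice and support nothing. Over the genes that fell, the median difference from the controls was -1.54 on Ts13 replicate 3, -1.94 on Ts13 replicate 4 and -1.38 on Ts16 replicate 1. Each control was set against the other controls in the same way, and their medians ran from -0.28 to 0.29. Wt replicate 9, with a Gapdh difference of 1.41, had -0.24, and 71.4% of these genes lay below the other controls. Wt replicate 1, with a Gapdh difference of 0.36, had -0.28, and Wt replicate 7, with 0.69, had 0.20. Over the genes that rose, the medians of the controls ran from -0.34 on Wt replicate 3 to 0.46 on Wt replicate 9, which had the lowest and the highest Gapdh difference of the controls. The kept genes had medians of -0.00 to 0.08 on the 3'-biased arrays, which had also taken part in choosing them.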

How the data were processed

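The deposited values are 1 table of log2 expression values for 22690 probe sets on 18 Affymetrix mouse arrays. Per the submitters' processing notes, the authors used the affy and GCRMA tools, which correct background, normalize between arrays and summarise probes; the notes name no versions. Probe sets were named from the platform annotation, in which 20393 had 1 gene, 691 several and 1606 none, and gene names and spans came from RefSeq (GRCm38.p6). Each gene was represented by its probe set with the highest mean, the Gapdh probe sets were left out, and 7381 of 12393 genes passed a mean of 4. Levels were fitted with limma 3.58.1 in R 4.3.3 (lmFit, eBayes with trend) on all 18 arrays, with label group and 3' bias as terms, two-sided, with Benjamini-Hochberg adjustment over all genes. Values normalized between arrays are relative, so a gene's rise or fall is measured against the rest of its array. Array number limits the precision.

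The named genes were the 14 largest falls, 10 largest rises, 8 brightest kept genes and 4 genes that differed most between trisomies under stated conditions, up to 4 members per list in the order of p, or the 2 brightest where a list had no call, and the 4 genes with the widest span between probe sets. 1 list is not reported here. The arrays, lists and rules were chosen with earlier results of these data known. The fit was tested on simulated data of 7381 genes with 200 changed, in 5 runs. It recovered 31.5% of changes of 1 log2 unit and 84.5% of changes of 2, and 7.63% and 2.99% of calls were false. The simulated noise was independent between genes, and far fewer genes were changed than the 40.1% called in the data. These rates may therefore not hold for this contrast. The deviations of arrays from their group means, from which the 3' bias was not taken out, cannot show whether replicate numbers pair the lines. Those of same-numbered Ts13 and Ts16 arrays correlated at -0.73, 0.41 and -0.45, and those of Ts13 and Wt arrays at -0.26 to -0.03. Those of Ts16 and Wt arrays correlated at 0.52, 0.41 and 0.58, and these pairs also share first numbers, so fits with either number as a block were made as alternatives. Alternatives were other filters, probe set summaries, scalings, blocks and spreads, and leaving out arrays. The lengths of coding sequences and transcripts were not used here.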

Additional observations from a re-analysis of the deposited data

Results flagged for a closer look

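Among 74 sets of control or Ts13 arrays examined over the named genes and the control gaps, 10 held an array that stood far from the rest, and chance alone marks about 1 in 20 such sets. Wt replicate 1 was low for 3 of the most reduced genes, with Pld3 at 6.34, Plp2 at 8.67 and Rcc2 at 6.89. Zfp189, which rose, was highest among the controls at 5.65 on Wt replicate 9, and Dner was lowest at 3.17 on Wt replicate 4. Among the kept genes, Ts13 replicate 2 stood apart for Actg1 (16.02), Lgals1 (16.11) and Rps29 (15.86), and Wt replicate 3 for Rps29 (15.84) and Tpt1 (15.99).

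The gap between 3'-biased and other arrays differed between the trisomies for 31 genes by the limma interaction term, but for 0 with only the 7 arrays of Ts13 and Ts16, 9 after quantile normalization and 6 without Ts13 replicate 2. Ts13 minus Ts16 was -4.92 for Actr1a, -4.26 for Dhrs7b, -4.23 for Icmt and -4.16 for Adcy6.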

How the results depend on the processing

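Of 157 named genes past the threshold, 131 passed with the same sign under every alternative in which they were fitted, and 2 turned, both with the mean of each gene's probe sets (Col1a1 to 0.42, adjusted p = 0.37 by limma, and Nup54 to -0.038, adjusted p = 0.94). Without a filter on low values, 5445 genes were higher, 4236 were kept and 122 differed between the trisomies. Ts13 alone gave 468 higher genes, Ts16 alone 537 lower and 228 higher, and probe sets fitted singly 2628 lower. The number kept was 151 with only the 7 arrays of Ts13 and Ts16, 442 with array weights and 2299 with a limit of 1. The number that differed between the trisomies was 14 with arrays centred on their median, 14 with arrays shifted to a median difference of 0 from the mean of the 18 arrays, 9 after quantile normalization and, by limma, 0 with only the 7 arrays, where 470 genes had an unadjusted p under 0.05. The Spearman coefficient of the difference with gene span was 0.18 without the filter and 0.17 with the mean of probe sets. The coefficient with the level on the other arrays was 0.024 without the filter, -0.20 with the mean of probe sets, -0.16 in Ts16 alone and -0.11 at a level of 8 or more. Leaving out 1 array at a time gave 1056 to 1416 lower genes, 468 to 1700 higher, 128 to 289 kept and 6 to 47 that differed between the trisomies. The lowest counts of higher and kept genes, 468 and 128, came without Ts16 replicate 1, and 762 genes were higher without Ts13 replicate 4. Without Ts16 replicate 1 the difference between the trisomies could not be fitted. With the replicate number as a block, 1261 genes were lower, 1802 higher and 180 kept. With the first number as a block, 1345 were lower, 1507 higher and 213 kept. The shift of arrays is an alternative chosen after seeing the data, as are the single probe set fits and promoter GC. The cause of these changes was not tested, apart from the fewer arrays in the fits on 7 arrays and on 1 trisomy.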

Other observations

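Among the chromosomes with at least 190 tested genes, the share of tested genes that were lower on the 3'-biased arrays ran from 9.25% of 389 genes on chromosome 3 to 29.2% of 260 genes on chromosome 19. Chromosome 7 had 28.9% of 498 genes lower and a median difference of -0.13, and chromosome 17 had 24.9% of 362. Chromosome 18 had 9.47% of 190 genes lower and chromosome X 10.5% of 238, with medians of 0.43 and 0.48. Among the trisomic chromosomes, chromosome 13 had a median of 0.33 in Ts13 and 0.55 in Ts16, and chromosome 16 had 0.24 in Ts13 and 0.34 in Ts16, where all arrays compared within a trisomy carry the same extra chromosome. No test was made of these differences between chromosomes.

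The control probe sets for 18S ribosomal RNA, which has no poly(A) tail, were at 3.56 to 3.88 for the 5' end on the 3'-biased arrays, 5.47 to 14.19 on the other Ts13 and Ts16 arrays, and 3.08 to 14.19 on all 15 arrays outside the set.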
